A study of Mus with 6 samples.

Results

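The miR-181 family was followed through small RNA libraries of mouse adipocytes. Its members were chosen by name, as the rows whose name begins with mmu-miR-181a-, mmu-miR-181b-, mmu-miR-181c- or mmu-miR-181d-, a rule that uses names only. Of the 929 known mature miRNAs named in all 6 libraries, 9 met this rule, and after the following 2 sentences they are written without the species prefix. The 4 guide strands are mmu-miR-181a-5p, mmu-miR-181b-5p, mmu-miR-181c-5p and mmu-miR-181d-5p. The 5 passenger strands are mmu-miR-181a-1-3p, mmu-miR-181a-2-3p, mmu-miR-181b-1-3p, mmu-miR-181b-2-3p and mmu-miR-181c-3p. The libraries fall into a group exposed to chronic intermittent hypoxia (CIH), in which oxygen drops and recovers again and again, as in sleep apnoea, and a control group, with 3 libraries each. The labels give wild-type genotype and the C57BL/6 strain for both groups. They give no age, fat depot, duration of exposure or oxygen level, and whether each library is a separate animal or culture is not stated, so the p-values below measure the spread among these libraries only, which may be technical.

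A miRNA hairpin is cut into a duplex, from which the guide strand is loaded into an Argonaute protein while the passenger strand is mostly degraded. The guide finds its target transcripts largely through the seed near its 5′ end, and the 5p strands of miR-181a, b, c and d share that seed. In the mouse, miR-181a is known as a regulator of T cell receptor sensitivity, miR-181b as an inhibitor of NF-kB signalling in endothelium, and the family as a regulator of white fat, where it has been linked to obesity and inflammation of the tissue.

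The family is encoded by 6 precursor genes in 3 pairs of neighbours, with positions here from RefSeq on GRCm38.p6. Mir181a-1 (chromosome 1, 137966455 to 137966541) and Mir181b-1 (137966639 to 137966718) are 97 bases apart and overlap no other gene of that table. Mir181a-2 (chromosome 2, 38852735 to 38852810) and Mir181b-2 (38853830 to 38853918) lie within the spans of Nr6a1, which encodes an orphan nuclear receptor, and the lncRNA gene Nr6a1os. Mir181d (chromosome 8, 84178716 to 84178787) and Mir181c (84178873 to 84178961) are 85 bases apart, and the nearest protein-coding gene, Nanos3, is 2164 bases from Mir181d. The 2 copies of Mir181a give the same 5p strand, as do those of Mir181b, so a 5p count cannot be assigned to a copy. The 3p strands of these copies differ and are named by copy, which makes them the counts that can be assigned to a locus. The 5p strands of the 4 subtypes differ by only a few bases, and how reads that match several names were counted is not given in the sources used here, so the split among them is uncertain.

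Total counts ran from 6291101 to 11264151 per library, and 3 counts, taken as the floor, correspond to 0.266 to 0.477 CPM, counts scaled to an equal library total. This floor and all intervals below cover counting error only. The libraries numbered 3 stand apart. Across 332 miRNAs, which are not independent, their log2 CPM correlated with the other libraries at r = 0.911 to 0.924, against 0.976 to 0.993 among the libraries numbered 1 and 2, and the pair numbered 3 correlated at 0.921. Their files also list other names, 1186 in all against 1053. Each comparison is therefore given with and without them. All 10 adipocyte-associated miRNAs chosen as markers had counts in every library, though none of these is specific to fat. They summed to 187980, 169596 and 328860 CPM in CIH libraries 1, 2 and 3, against 247192, 260528 and 639089 CPM in control libraries 1, 2 and 3. miR-148a-3p, a member of that list, made up 249065 CPM of CIH library 3 and 493520 CPM of control library 3, against 28100 to 55275 CPM in the other 4, so the library in which the miR-181 family was scarcest was the one where this miRNA took the largest share. The part of miR-148a-3p in the levels of miR-181 was not tested. The higher sums in the libraries numbered 3 came from this miRNA, and the rest of the list did not rise as a whole. miR-103-3p, miR-107-3p, miR-143-3p and miR-365-3p were lower in both libraries numbered 3 than in any other library. miR-30c-5p was higher in both, and the remaining markers were mixed. Leukocyte markers were near 0, with a summed level of 0.266 to 3.27 CPM in CIH and 0.363 to 4.29 CPM in control, and only 1 of the 4 had a count in every library.

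miR-181a-5p, the main guide strand of the family, was lower in CIH than in control in the libraries numbered 1 and 2 and far higher in CIH in the pair numbered 3. It had 1810, 1630 and 1481 CPM in CIH libraries 1, 2 and 3, against 2741, 2409 and 134 CPM in control libraries 1, 2 and 3. The CIH libraries lay close together, while control library 3 held far less than any other library, so the groups overlapped. The means were 1640 ± 165 CPM over the CIH libraries and 1761 ± 1419 CPM over the control libraries (SD, n = 3 each). miR-181a-5p was the 40th most abundant of the 929 names by mean CPM.

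miR-181b-5p, the second guide strand in abundance, had the same pattern. It stood at 353, 253 and 432 CPM in CIH libraries 1, 2 and 3, against 432, 329 and 36.8 CPM in control libraries 1, 2 and 3. Control library 3 was again the lowest, and the groups overlapped. miR-181a-5p exceeded miR-181b-5p by 5.12, 6.45 and 3.43 times in CIH libraries 1, 2 and 3, and by 6.34, 7.31 and 3.63 times in control libraries 1, 2 and 3. The lead of miR-181a-5p was thus smallest in the pair numbered 3, in both groups.

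The guide strands encoded on chromosome 8 were scarce. miR-181d-5p had 9.13, 6.07 and 8.26 CPM in CIH libraries 1, 2 and 3, against 4.93, 5.04 and 1.82 CPM in control libraries 1, 2 and 3. Every CIH library was above every control library. miR-181c-5p had 0.954, 1.79 and 1.33 CPM in CIH libraries 1, 2 and 3, against 2.23, 1.85 and 0.242 CPM in control libraries 1, 2 and 3. Its groups overlapped, and its highest count was 18. Both strands together made up 0.410% to 0.467% of the family in CIH and 0.223% to 1.10% in control.

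Among the passenger strands, that of Mir181a-1 led. miR-181a-1-3p had 24.7, 23.1 and 114 CPM in CIH libraries 1, 2 and 3, against 25.4, 25.5 and 13.1 CPM in control libraries 1, 2 and 3. The 4 libraries numbered 1 and 2 were nearly level, and the pair numbered 3 held both the highest and the lowest value. Its neighbour on chromosome 1, miR-181b-1-3p, had 2.04, 1.39 and 12.9 CPM in CIH libraries 1, 2 and 3, against 1.11, 1.23 and 0.605 CPM in control libraries 1, 2 and 3. Here every CIH library was above every control library, but 5 of the 6 libraries held between 5 and 15 counts. CIH library 3 held 145 counts.

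The copies on chromosome 2 behaved otherwise. miR-181a-2-3p had 6.95, 3.78 and 0 CPM in CIH libraries 1, 2 and 3, against 3.66, 4.01 and 0 CPM in control libraries 1, 2 and 3. It was thus counted in the libraries numbered 1 and 2 of both groups and in neither library numbered 3. A difference in how the libraries numbered 3 were counted could not be checked, so a 0 there is a listed value, in the share and the comparison of sets below as well. miR-181b-2-3p never exceeded 6 counts, and miR-181c-3p had 5, 2 and 21 counts in CIH libraries 1, 2 and 3 and 9, 4 and 2 counts in control libraries 1, 2 and 3.

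**Figure D1:**
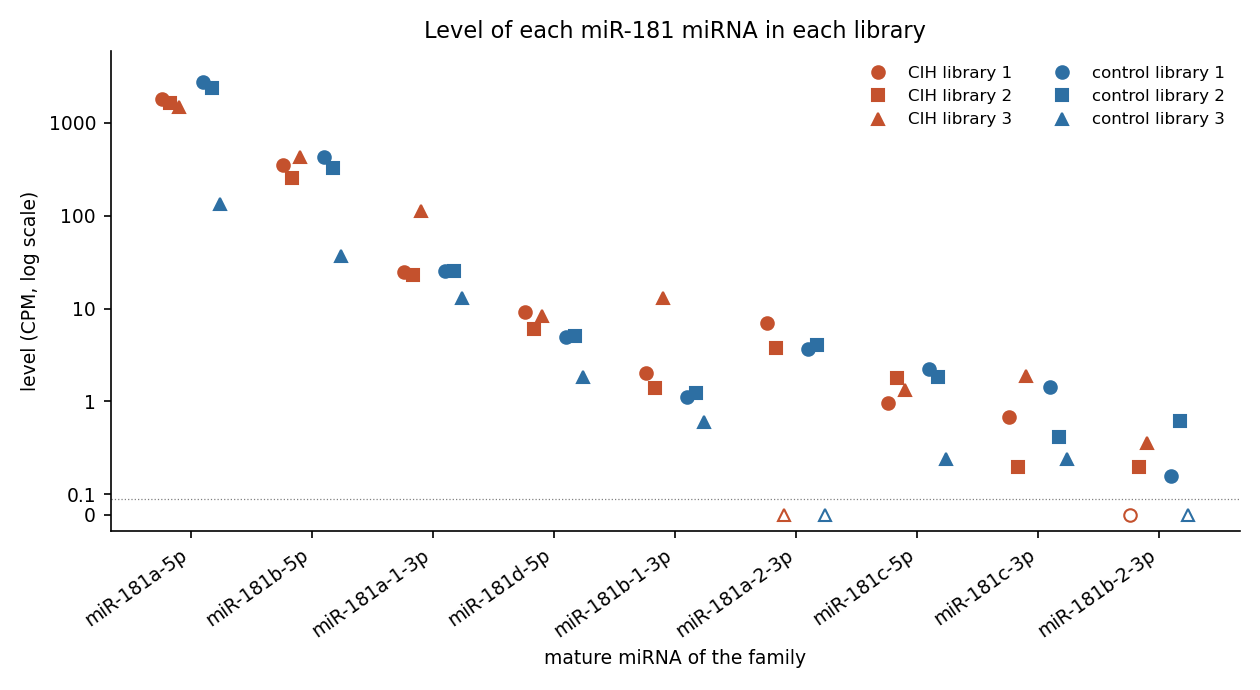
Level of each of the 9 miR-181 miRNAs in each library, in CPM on a log axis, with CIH in red left of control in blue and the library number as the symbol; open symbols below the dotted line are libraries with 0 counts. Control library 3 is the lowest for miR-181a-5p, at 134 CPM, and both libraries numbered 3 are at 0 for miR-181a-2-3p.

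The order of mean CPM was miR-181a-5p, miR-181b-5p, miR-181a-1-3p, miR-181d-5p, miR-181b-1-3p, miR-181a-2-3p, miR-181c-5p, miR-181c-3p and miR-181b-2-3p. The first 4 kept this order in 6 of 6 libraries. Below them the neighbours were not separated beyond their spread. miR-181d-5p exceeded miR-181b-1-3p in 5 of 6 libraries, miR-181b-1-3p exceeded miR-181a-2-3p in 2 of 6, and each later neighbour kept its place in 4 of 6.

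The whole family made up 0.221%, 0.192% and 0.205% of CIH libraries 1, 2 and 3, against 0.321%, 0.278% and 0.0187% of control libraries 1, 2 and 3. Its summed level was 2059 ± 144 CPM over the CIH libraries and 2058 ± 1636 CPM over the control libraries (SD, n = 3 each). The equal means come from unlike values. The sums were 2207 and 1919 CPM in CIH libraries 1 and 2 and 3212 and 2777 CPM in control libraries 1 and 2, and in the pair numbered 3 they were 2051 CPM in CIH and 187 CPM in control. Without control library 3 the log2 ratio of the means was -0.54, against 0.00053 with it. The libraries do not tell fewer cells of a type apart from less miRNA per cell.

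In all 6 libraries together, no member of the family was called different between CIH and control. The 7 members that passed the filter on low counts (all but miR-181b-2-3p and miR-181c-3p) were tested among 456 miRNAs with edgeR's quasi-likelihood test, and at a Benjamini-Hochberg adjusted p under 0.05 it called 0 of them and 0% of all miRNAs. At an unadjusted p under 0.05 there were 23 miRNAs, of which miR-181b-1-3p was the only member. Neither DESeq2 (0 calls, 37 at that unadjusted p) nor limma-voom (0 calls, 21) called any miRNA. The counts were scaled by TMM, which lines up the bulk of the miRNAs, and with total counts alone the median log2 difference over all tested miRNAs was 0.15, against 0.04.

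The largest log2 difference was that of miR-181b-1-3p, at 2.30 (SE 0.89, edgeR adjusted p = 0.833), and without CIH library 3 it was 0.69. miR-181a-1-3p followed at 1.20 (SE 0.67, adjusted p = 0.885), and without CIH library 3 at 0.090. miR-181d-5p stood at 0.91 (SE 0.48, adjusted p = 0.885) and, with each library left out in turn, at 0.77 to 1.09. miR-181b-5p stood at 0.43 (SE 0.66), miR-181a-2-3p at 0.55 (SE 1.5), miR-181c-5p at -0.022 (SE 0.70) and miR-181a-5p at -0.010 (SE 0.78). For the last 4 the SE exceeded the difference, and leaving out a single library turned the sign of each. With the replicate number as a block, miR-181a-5p stood at 0.52 and miR-181c-5p at 0.10, and no member was called. Over the 7 members the median log2 difference was 0.55, against 0.04 over all miRNAs tested. That median is the value of miR-181a-2-3p (SE 1.5), whose sign turned without CIH library 1, so no shift of the family is read from it.

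miR-181d-5p and miR-181b-1-3p were the 2 of 9 members whose CPM ranges did not overlap between CIH and control. Over all 929 names this held for 7.32%.

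Within the libraries numbered 1 and 2, miR-181a-5p was lower in CIH in both numbered pairs. In CPM, CIH over control was at 0.660 (95% counting interval 0.646 to 0.675) and 0.677 (0.663 to 0.690). With the TMM scaling of all 6 libraries and 0.5 CPM added, the log2 differences were less alike, at -0.54 and -0.33. The edgeR log2 difference was -0.44 (SE 0.20, adjusted p = 0.205; unadjusted p = 0.0417), which did not pass. miR-181b-5p was lower too, at 0.817 (0.773 to 0.862) and 0.768 (0.728 to 0.809), with a log2 difference of -0.20 (SE 0.22, adjusted p = 0.655). miR-181d-5p was the reverse, with a CIH over control ratio of 1.85 (1.19 to 2.94) and 1.20 (0.814 to 1.79) and a log2 difference of 0.72 (SE 0.39, adjusted p = 0.281).

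The passenger strands and miR-181c-5p were not called there either. miR-181a-1-3p had a log2 difference of 0.053 (SE 0.32, edgeR adjusted p = 0.947), and it turned to -0.093 with total counts as the scaling. miR-181a-2-3p stood at 0.58 (SE 0.41, adjusted p = 0.465), with ratios of 1.90 (1.14 to 3.26) in the pair numbered 1 and 0.943 (0.587 to 1.51) in the pair numbered 2. miR-181b-1-3p stood at 0.65 (SE 0.70, adjusted p = 0.641) and miR-181c-5p at -0.35 (SE 0.65, adjusted p = 0.796).

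Of the 459 miRNAs tested in these 4 libraries, 43 (9.37%) were called, 4.14% higher and 5.23% lower in CIH, and 0 of the 7 members tested. The median log2 difference was 0.053 over the 7 members and -0.034 over all. Leaving out control library 2 brought the 43 down to 6, and leaving out control library 1 to 14. Leaving out CIH library 1 gave 23, and leaving out CIH library 2 gave 91. In each of these fits 0 members were called. With total counts as the scaling the median over all miRNAs was -0.17 and the calls were 7 higher and 27 lower, against 19 and 24 with TMM, while miR-181a-5p stood at -0.58 (adjusted p = 0.172).

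In the pair numbered 3 every member with counts in both libraries was higher in CIH. The CIH over control ratio in CPM was 11.1 (95% counting interval 10.4 to 11.8) for miR-181a-5p, 11.7 (10.5 to 13.2) for miR-181b-5p and 4.55 (2.62 to 8.45) for miR-181d-5p. For the passenger strands of chromosome 1 it was 8.71 (7.15 to 10.7) for miR-181a-1-3p and 21.3 (8.91 to 66.5) for miR-181b-1-3p. miR-181c-5p, at 15 counts in CIH and 2 in control, had a ratio of 5.50 (1.28 to 49.6). miR-181c-3p, at 21 and 2 counts, had 7.70 (1.88 to 67.7). With 1 library per group these ratios have no replicate check.

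TMM scaling moves each log2 difference of CPM in the pair numbered 3 by -0.80 where nothing is added to the CPM. With 0.5 CPM added, which makes the shift smaller at low levels, the median over the 456 miRNAs is 0.05 with TMM and 0.74 without. After TMM, again with 0.5 CPM added, the log2 difference in this pair was 2.66 for miR-181a-5p and 2.74 for miR-181b-5p. It was 2.29 for miR-181a-1-3p, 3.06 for miR-181b-1-3p and 1.24 for miR-181d-5p. miR-181a-5p ranked 23rd of the 456 there, and 5.04% of miRNAs were at or above it.

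**Figure D2:**
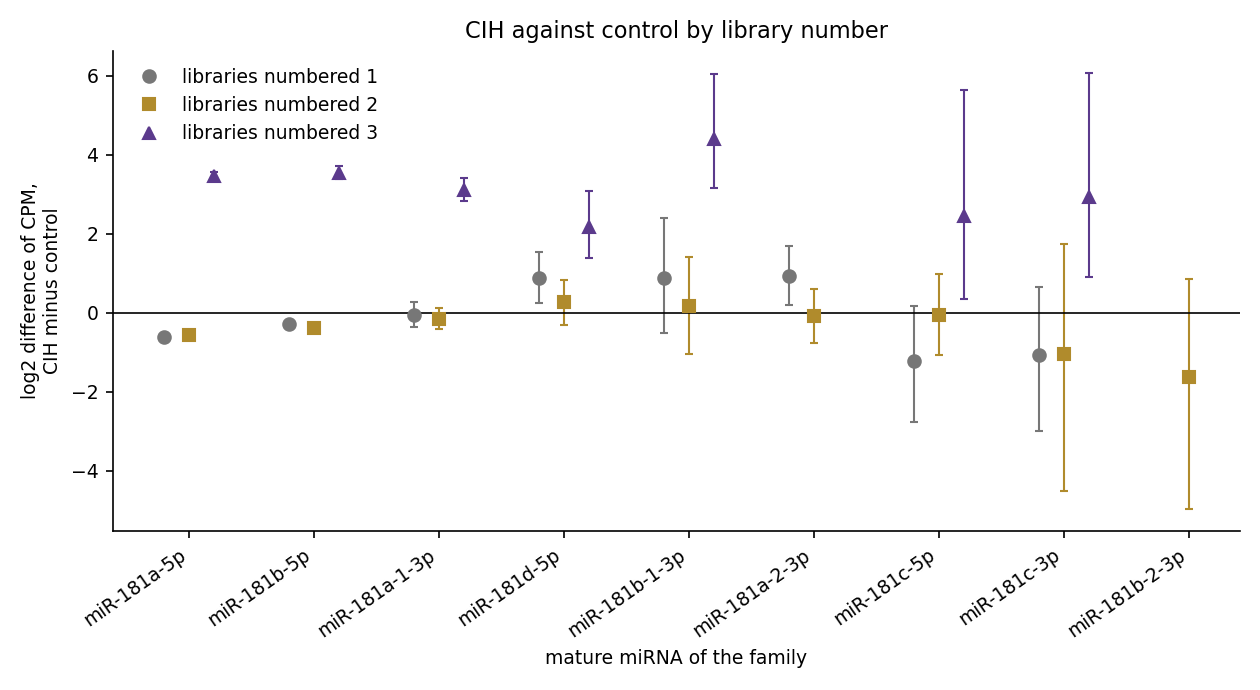
Log2 difference of CPM, CIH minus control, for each miR-181 miRNA by library number, with 95% intervals for counting error; members with 0 counts in either library, or at most 3 counts in both, have no point. The pair numbered 3 is at 3.47 for miR-181a-5p, while the pairs numbered 1 and 2 are at -0.60 and -0.56.

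Markers of other cells did not go one way across the pair numbered 3. By their sums, endothelial and stromal markers were higher in its CIH library, and neuronal markers were nearly level. The sums of epithelial, erythroid and muscle markers were higher in its control library, but most epithelial markers with counts there went the other way. The endothelial markers (2 of 2 counted in every library) summed to 104, 73.1 and 100.1 CPM in CIH libraries 1, 2 and 3, against 137, 92.9 and 33.8 CPM in control libraries 1, 2 and 3. Control library 3 was the lowest here too. The stromal markers (3 of 3 counted in every library) summed to 10752, 10647 and 65453 CPM in CIH libraries 1, 2 and 3, against 15708, 12890 and 6077 CPM in control libraries 1, 2 and 3. Of the neuronal markers, 3 of 4 had a count in every library, and they summed to 521, 347 and 211 CPM in CIH libraries 1, 2 and 3, against 521, 304 and 212 CPM in control libraries 1, 2 and 3. Epithelial markers (5 of 7 counted in every library) summed to 170, 126 and 18.6 CPM in CIH libraries 1, 2 and 3, against 409, 334 and 76.3 CPM in control libraries 1, 2 and 3. Of these, miR-205-5p stood at 1.86 CPM in CIH library 3 and 67.8 CPM in control library 3. miR-200a-3p, miR-200b-3p, miR-200c-3p and miR-203-3p went the other way, at 2.57, 3.99, 2.57 and 7.55 CPM in CIH library 3. In control library 3 they stood at 0.363, 0.969, 0.484 and 6.66 CPM. miR-141-3p and miR-429-3p were at 0 in both. Erythroid markers (1 of 3) summed to 106, 44.1 and 3.28 CPM in CIH libraries 1, 2 and 3, against 129, 48.6 and 8.35 CPM in control libraries 1, 2 and 3. Muscle markers (3 of 3) summed to 38.7, 11.6 and 29.3 CPM in CIH libraries 1, 2 and 3, against 33.4, 12.6 and 111 CPM in control libraries 1, 2 and 3. The part of these cells in the levels of miR-181 was not tested.

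In both groups the share of passenger strand was highest in the library numbered 3. The ratio of miR-181a-5p to miR-181a-1-3p was 73.4, 70.5 and 13.0 in CIH libraries 1, 2 and 3, against 108, 94.4 and 10.2 in control libraries 1, 2 and 3. It was lower in both libraries numbered 3 than in any other. As a share of both strands, miR-181a-1-3p took 1.34% (exact 95% interval 1.16% to 1.55%), 1.40% (1.23% to 1.59%) and 7.14% (6.77% to 7.53%) in CIH libraries 1, 2 and 3. In control libraries 1, 2 and 3 it took 0.920% (0.783% to 1.07%), 1.05% (0.922% to 1.19%) and 8.90% (7.36% to 10.7%). The shared 5p strand also holds reads of Mir181a-2, so this is the ratio of counts and not of a single hairpin.

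The mean log2 ratio, with 0.5 counts added to each strand, was 5.34 ± 1.42 in CIH and 5.55 ± 1.91 in control (SD, n = 3 each). The difference of -0.21 had p = 0.6 in a two-sided exact permutation test, and p = 1 after adjustment for the 4 ratios tested. With 3 libraries against 3 the smallest p this test allows is 0.1. By number the difference was -0.55 and -0.42 in the pairs numbered 1 and 2 and 0.35 in the pair numbered 3, so its sign depended on the pair. Without CIH library 3 it was 0.61, without control library 3 it was -1.31, and in the libraries numbered 1 and 2 alone it was -0.49.

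miR-181b-5p over miR-181b-1-3p was the strand ratio that was lower in CIH in each numbered pair. It stood at 173, 181.4 and 33.6 in CIH libraries 1, 2 and 3, against 389, 267 and 60.8 in control libraries 1, 2 and 3. The libraries numbered 3 were again the lowest of each group. The log2 ratio was 6.63 ± 1.36 in CIH and 7.43 ± 1.44 in control (SD, n = 3 each), and the difference of -0.80 had p = 0.5 in the same exact test, with an adjusted p of 1. The differences were -1.12, -0.55 and -0.73 in the pairs numbered 1, 2 and 3. As pairs the exact sign-flip p was 0.25. With 3 pairs this is the smallest p the sign-flip test allows, so that test cannot decide whether the ratio differed. In the libraries numbered 1 and 2 alone the difference of the means was -0.83. Without control library 3 it was -1.62. Without CIH library 3 it was -0.013, where the low ratio of control library 3 stayed in the control mean with no CIH library of that number. These ratios rest on the 5 to 15 passenger counts of 5 libraries. The ratio of miR-181b-5p to its other passenger strand, miR-181b-2-3p, went the other way in each pair. With 0.5 counts added its log2 differences were 1.51, 1.04 and 0.83 in the pairs numbered 1, 2 and 3. It rests on at most 6 passenger counts per library and was not tested.

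miR-181c-5p and miR-181c-3p were the pair of strands nearest to balance. The ratio was 1.4, 9 and 0.714 in CIH libraries 1, 2 and 3, against 1.56, 4.5 and 1 in control libraries 1, 2 and 3. At 2 to 21 counts per strand the groups overlapped.

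**Figure D3:**
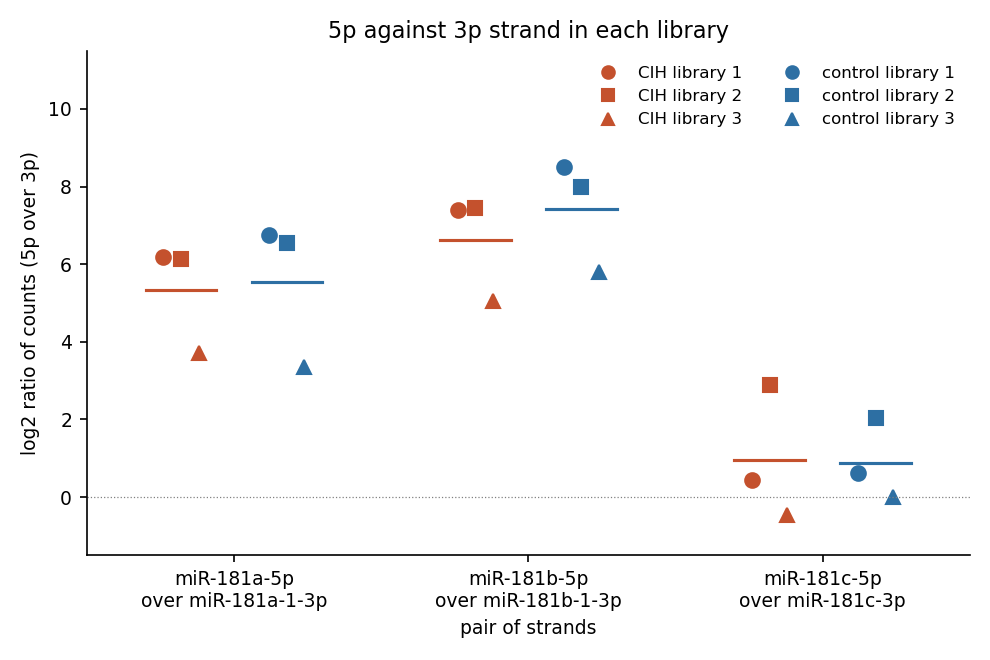
Log2 ratio of the 5p to the 3p count, with 0.5 counts added, for 3 pairs of miR-181 strands in each library; CIH is in red left of control in blue, symbols give the library number and lines the group means. For miR-181a-5p over miR-181a-1-3p the libraries numbered 3 lie at 3.70 in CIH and 3.35 in control, below the 6.14 to 6.75 of the other 4.

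Of 59 other hairpins, 5 shifted as far or farther in either direction. In the libraries numbered 1 and 2 the mean log2 ratio of miR-181a-5p to miR-181a-1-3p was 6.41, and 10 of these 59, which had at least 10 CPM in the mean of each arm, were more one-sided. From these libraries to those numbered 3 the log2 ratio changed by -2.88 for miR-181a, against a median change of 0.37 (quartiles -0.59 and 1.08) in the ratio of major to minor arm of the 59. In 3 of the 59 the change was further below. This is a description of these libraries, with no test.

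The passenger strand of the chromosome 1 copy exceeded that of the chromosome 2 copy in every library, for miR-181a. A passenger level also depends on how strands are selected and degraded, so it does not rank the loci. Of the counts of both miR-181a passenger strands, miR-181a-2-3p took 22.0% (exact 95% interval 16.8% to 27.9%) and 14.1% (10.2% to 18.8%) in CIH libraries 1 and 2, against 12.6% (8.14% to 18.3%) and 13.6% (9.84% to 18.1%) in control libraries 1 and 2. These intervals overlapped in each numbered pair, though in the pair numbered 1 only from 16.8% to 18.3%, and an overlap is no test of a difference. In CIH library 3 it took 0 of 1283 counts, where the exact 95% interval ends at 0.287% and 3 counts would be 0.234%. In control library 3 it took 0 of 108 counts, where the interval ends at 3.36% and 3 counts would be 2.78%. The share in the libraries numbered 3 was thus below that of the other 4 in both groups.

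**Figure D4:**
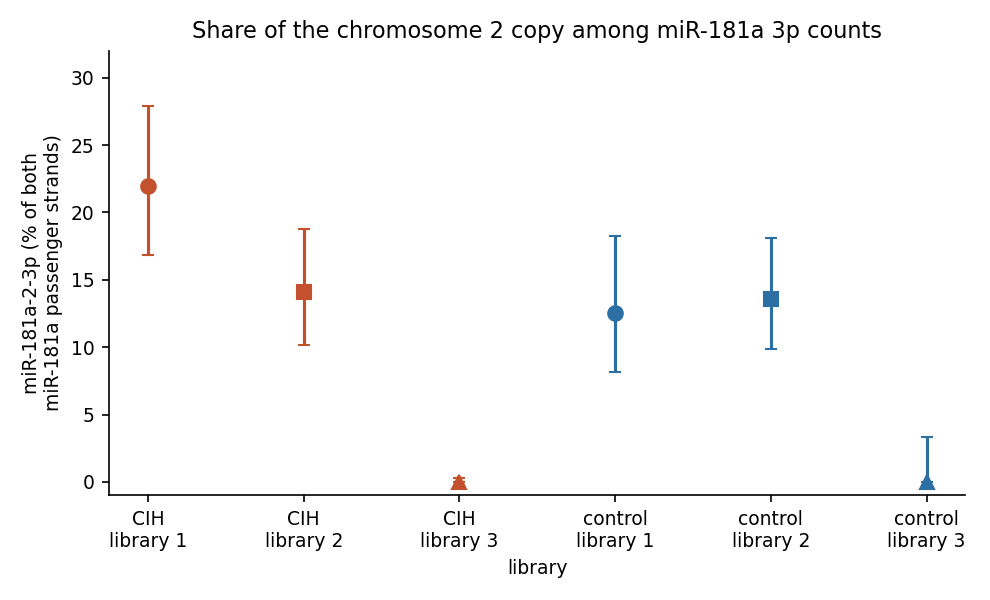
Share of miR-181a-2-3p, the passenger strand of the chromosome 2 copy, among the counts of both miR-181a passenger strands in each library, in percent with exact 95% intervals, CIH in red and control in blue. The share is 0 in both libraries numbered 3 and 12.6% to 22.0% in the libraries numbered 1 and 2.

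The log2 ratio of miR-181a-1-3p to miR-181a-2-3p did not differ detectably between the groups, at 5.25 ± 5.28 in CIH and 4.4 ± 2.92 in control (SD, n = 3 each), with p = 1 in the exact permutation test. The log2 ratio of miR-181a-5p to miR-181a-2-3p was 10.6 ± 3.86 in CIH and 9.95 ± 1.02 in control, again with an exact permutation p of 1. Both differences, 0.85 and 0.64, turned to -0.51 and -0.99 within the libraries numbered 1 and 2, and to -2.19 and -1.58 without CIH library 3. The values in the libraries numbered 3 depend on the 0.5 counts added.

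Within the chromosome 1 locus the 2 passenger strands were both highest in CIH library 3 and both lowest in control library 3. The ratio of miR-181b-1-3p to miR-181a-1-3p was 0.0829, 0.0603 and 0.113 in CIH libraries 1, 2 and 3, against 0.0437, 0.0484 and 0.0463 in control libraries 1, 2 and 3. The CIH libraries were all above the control libraries. miR-181b-1-3p had 15, 14 and 145 counts in CIH libraries 1, 2 and 3 and 7, 12 and 5 counts in control libraries 1, 2 and 3. The ratio thus rests on few counts in all but CIH library 3. This ratio was looked at after the values were seen and was not tested.

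Between the sets of libraries, with group in the model, edgeR called 108 of 488 miRNAs (22.1%), and 1 of the 8 members tested. That member, miR-181a-2-3p, was lower in the libraries numbered 3 (adjusted p = 0.00836), as were 11.1% of all miRNAs (54 higher and 54 lower). With total counts as the scaling there were 18 higher and 43 lower, around a median log2 difference of -0.49, and miR-181a-2-3p was called there too (adjusted p = 0.0181). The floor of 3 counts in control library 3 (0.363 CPM, per library), set against the mean of 4.6 CPM in the libraries numbered 1 and 2, makes it at least 12.7-fold lower in the libraries numbered 3 by file totals. With the TMM scaling of the test, the floor is 0.572 CPM against a mean of 4.2 CPM, and the strand is at least 7.35-fold lower, an alternative chosen after seeing the data. It was at adjusted p = 0.0549 without CIH library 2 and 0.0515 without control library 1, where the number of calls was 2 in each case.

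The other members were not called between the sets by edgeR. miR-181b-1-3p was higher in the libraries numbered 3 by 1.81 (SE 0.68, adjusted p = 0.0980), and DESeq2 called it (adjusted p = 0.0411). miR-181a-1-3p stood at 1.22 (SE 0.55, adjusted p = 0.154) and miR-181a-5p at -1.52 (SE 0.75, adjusted p = 0.188). Without CIH library 3, which leaves control library 3 as the lone library of its set, assumed to vary like the others, miR-181a-5p stood at -3.44 and miR-181b-5p at -2.54, and both were called. Without control library 3 they stood at -0.35 and 0.40, and miR-181a-1-3p (2.12) and miR-181b-1-3p (2.79) were called instead. The number of calls over all miRNAs was 34 when CIH library 1 was left out and 30 when control library 2 was, and it was 233 when CIH library 3 was left out and 267 when control library 3 was.

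Of 16 inflammation-linked miRNAs, listed for their links to NF-kB and immune activation, 14 passed the filter. The list is no readout of the NF-kB pathway, no component of which was measured. In all 6 libraries edgeR called 0 of the 14, with a median log2 difference of 0.65. In the libraries numbered 1 and 2 it called 5, all higher in CIH, where 4.14% of all miRNAs were called higher, and the median was 0.57. The list was chosen with earlier results of these data known, so its share of calls is no test of the list. They were miR-155-5p (log2 difference 0.76) and miR-155-3p (1.69), induced in activated immune cells, miR-221-3p (1.18) and miR-222-3p (1.14), which share a cluster, and miR-187-3p (1.60). Their edgeR adjusted p ran from 0.00022 for miR-221-3p to 0.034 for miR-155-5p. Of the 14, 3 were lower in CIH without being called, miR-31-5p (-0.70), miR-9-5p (-0.45) and miR-125b-5p (-0.020). The calls in these libraries depended on which were left out, and whether the 5 stay called is not given here. miR-181d-5p had a log2 difference of 0.72 without being called. Between the sets of libraries 2 of 15 were called, miR-146a-5p higher and miR-21a-5p lower in the libraries numbered 3, where 22.1% of all miRNAs were called. These 5 were not tested against the miR-181 family.

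The 3 miRNAs outside the family whose log2(CPM + 1) was most like that of miR-181a-5p over the 6 libraries, among 254 with a mean of at least 10 CPM, were miR-140-5p (Pearson r = 0.993, Spearman rho = 0.829), miR-872-5p (r = 0.991, rho = 0.943) and miR-130a-3p (r = 0.990, rho = 0.943). miR-140-5p is known from cartilage, and miR-130a-3p is a known repressor of the adipogenic factor PPARγ. These values rest largely on control library 3, in which miR-140-5p stood at 26.8 CPM, miR-872-5p at 49.4 CPM and miR-130a-3p at 6.78 CPM. Without control libraries 3 and 1, the farthest from the median of miR-181a-5p, r over the 4 others was 0.690, 0.502 and 0.954 in the same order.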

How the data were processed

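The values deposited by the authors are raw read counts for each mature miRNA, with a table per library; in 3 headers the column is named FPKM, but it holds whole numbers whose totals differ between libraries. GRCm38, featureCounts 1.5.0-p3 and DESeq 1.8.3 are listed, without roles, per the submitters' processing notes. The sources used here do not give the trimming, the aligner, the miRBase release or the handling of reads that match several names. There were 0 columns of other samples.

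The 929 known names shared by all libraries were tested with the quasi-likelihood test of edgeR 4.0.16 (robust, TMM, filterByExpr) in R 4.3.3, with Benjamini-Hochberg adjustment over all tested. DESeq2 1.42.0, limma-voom (limma 3.58.1), other scalings, filters, a replicate block and leaving out each library were alternatives. Ratios were compared with exact permutation tests in Python 3.11.15 (numpy 2.4.6, scipy 1.17.1, pandas 2.3.3). Intervals of shares are exact binomial (Clopper-Pearson), and those of ratios of CPM are exact conditional binomial. The fits were also run on simulated counts with planted changes. Their recovery is not given here, so a lack of calls does not show a lack of change. Libraries of 1 group differed by more than counting noise (chi-square per degree of freedom 135 or more).

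Libraries of the same number deviated together from their group means (r = 0.35, 0.36 and 0.42 over 332 miRNAs). So did CIH library 1 with control library 2 (0.18) and CIH library 2 with control library 1 (0.46). Every library numbered 3 correlated negatively with those of another number in the other group. Deviations from a group mean cancel out within the group, and the libraries numbered 3 stand apart. The signs of these r thus partly follow from the centring on the mean. These r therefore do not show a pairing by number within the libraries numbered 1 and 2. The blocked fit takes the numbers as pairs all the same. Members, lists, comparisons and alternatives were chosen with earlier results of these data known. The named miRNAs are the members, the 3 most like miR-181a-5p, and those called in the inflammation-linked list. No sequence is printed, since no table of miRNA sequences was used here.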

Additional observations from a re-analysis of the deposited data

How the results depend on the processing

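No member was called between CIH and control under any alternative run, in all 6 libraries or in those numbered 1 and 2, where DESeq2 gave miR-181b-1-3p no adjusted p. With limma-voom, the signs over 6 libraries turned for miR-181a-5p (0.61), miR-181a-2-3p (-0.87) and miR-181c-5p (0.012). With the replicate block they turned for miR-181a-5p (0.52) and miR-181c-5p (0.10), and with the set as a term for the same members (0.52 and 0.14); the block changed no call. With libraries left out in turn the ranges were -0.51 to 0.39 for miR-181a-5p, -0.0072 to 0.89 for miR-181b-5p, -0.17 to 1.14 for miR-181a-2-3p and -0.40 to 0.32 for miR-181c-5p. In the libraries numbered 1 and 2 the 43 calls became 16 with a mean of at least 10 CPM required and ranged from 6 to 91 with libraries left out. There miR-181a-1-3p was -0.093 with total counts alone and ranged from -0.028 to 0.19, and miR-181c-5p from -1.05 to 0.11. Between the sets the 108 calls became 61 with total counts alone and 2 to 267 with libraries left out. The ranges were -0.14 to 2.12 for miR-181a-1-3p, -0.14 to 2.79 for miR-181b-1-3p, -2.54 to 0.40 for miR-181b-5p, -0.97 to 2.02 for miR-181c-3p and -0.63 to 0.0099 for miR-181d-5p. Without a filter, miR-181a-5p (-1.66) and miR-181b-1-3p (1.67) were called as well. Within the libraries numbered 1 and 2 the ratios of miR-181a-1-3p (-0.51) and miR-181a-5p (-0.99) to miR-181a-2-3p turned, and with libraries left out they ranged from -2.19 to 2.56 and from -1.58 to 1.93. The ratio of miR-181a-5p to miR-181a-1-3p ranged from -1.31 to 0.61. The cause was not tested. The ratios to miR-181a-2-3p have no value without a pseudocount. Members under about 20 counts are limited by depth.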

Other observations

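miR-181a-2-3p was the only 1 of 336 names (0.298%) with at least 20 counts in each of the 4 libraries numbered 1 and 2 that was listed at 0 in both libraries numbered 3. With at least 10 counts in each of the 4 libraries there were 397 such names, of which 2 were at 0, the other being miR-204-5p. These limits were chosen after the values were seen. In CIH library 3, where miR-181a-2-3p had 0 counts, the other passenger strand of the chromosome 2 locus, miR-181b-2-3p, had 4.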
